A study of Mus musculus with 6 samples.

Results

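The 9 genes described here are drivers of colon cancer, or genes that such tumors often alter: Myc, Cdkn2a, Cdkn2b, Trp53, Apc, Ctnnb1, Egfr, Erbb2 and Met. They were taken by symbol from a table of 55487 genes, and each symbol matched 1 row. RNA was sequenced from 6 subcutaneous tumors grown from CT26.WT, a colon carcinoma line of the BALB/c mouse, in wild-type, immunocompetent male BALB/c mice bought at 4 weeks of age. The 3 mice of the IFN-γ group were injected repeatedly with recombinant mouse IFN-γ through the tail vein, and the 3 mice of the control group received PBS. Each library is a piece of whole tumor, so it holds RNA of the implanted line and of host cells together. For a given gene, fewer cells of a type and less RNA per cell cannot be told apart.

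These genes work in a few linked circuits. APC is a scaffold of the complex that marks β-catenin, the product of Ctnnb1, for destruction, and most human colon cancers begin with loss of that brake on WNT signaling. MYC is a growth-promoting transcription factor and a WNT target in the intestine. Cdkn2a encodes p16INK4a and, in another reading frame, p19ARF, which restrain the cyclin D kinases and stabilize p53, and its neighbor Cdkn2b encodes the related kinase inhibitor p15INK4b. Trp53 encodes p53, the damage-induced activator of cell cycle arrest and apoptosis. EGFR, ERBB2 and MET are receptor tyrosine kinases that signal through RAS and the MAPK cascade, EGFR for ligands of the EGF family, ERBB2 as a partner without a ligand of its own, and MET for hepatocyte growth factor.

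The libraries held from 15759300 to 17559680 counts on genes, and a count of 0 in a tumor allows up to 0.169 to 0.188 CPM (reads relative to library size, scaled with TMM factors), counting error only. In edgeR's quasi-likelihood test over all 6 tumors, 15114 genes were tested and, at an adjusted p under 0.05, 12 had more RNA in the IFN-γ group and 5 had less. When single tumors were left out, the fit without IFN-γ tumor 3 called the most genes, 381 higher and 112 lower. The value without that library is given for each of the 9 genes. For other genes whose log2 fold change over all 6 tumors is printed, it is given where it moved by more than 1.5 times. Among markers of the labelled tissue, Krt20, a keratin of differentiated colon epithelium, was at 113 to 271 CPM. Cdx2, a transcription factor of intestinal identity, had 0 counts in every tumor. Of the 14 colon epithelial markers, only 3 exceeded 3 counts in every tumor, and 6 had at most 3 counts in every tumor. All 10 fibroblast markers, all 9 macrophage markers and all 8 T cell markers exceeded 3 counts in every tumor, led by Col1a2, Lyz2 and Cd8a. Summed macrophage markers ranged from 3633 to 4334 CPM in the control group and from 4021 to 6647 CPM in the IFN-γ group. Lyz2 was the largest part of this sum, at a mean of 2246 CPM. Mrc1 of the same list went the other way, with 6918 to 7125 counts in the control group and 5203 to 6345 in the IFN-γ group. Summed adipocyte markers, led by Fabp4, ranged from 119 to 172 CPM and from 183 to 254 CPM, without overlap. Fabp4 itself did overlap, with 1456 to 2347 counts in the control group and 1938 to 2302 in the IFN-γ group. Summed endothelial markers (Pecam1 first) were at 205 to 316 CPM over the 6 tumors and skeletal muscle markers (Acta1 first) at 148 to 950 CPM.

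The sequences before the starts of the Cdkn2 genes are shown first, because these 2 genes had the fewest reads of the 9. All 3 lie on the minus strand of chromosome 4 of GRCm38.p6, are taken from RefSeq and are cut where the gene's own exons begin in GENCODE M21. Capitals mark CpG dinucleotides.
Cdkn2a, distal start, chr4:89294654-89294869: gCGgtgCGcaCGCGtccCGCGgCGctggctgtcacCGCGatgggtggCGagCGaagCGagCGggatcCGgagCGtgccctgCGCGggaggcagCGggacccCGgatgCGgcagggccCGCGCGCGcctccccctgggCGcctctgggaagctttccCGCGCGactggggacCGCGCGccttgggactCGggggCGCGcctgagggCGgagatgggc
Cdkn2a, proximal start, chr4:89282193-89282442: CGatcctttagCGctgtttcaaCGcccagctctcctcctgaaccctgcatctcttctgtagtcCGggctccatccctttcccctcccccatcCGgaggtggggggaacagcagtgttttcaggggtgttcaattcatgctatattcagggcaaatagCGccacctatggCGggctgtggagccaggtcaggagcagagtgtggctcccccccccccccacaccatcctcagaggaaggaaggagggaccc
Cdkn2b, chr4:89311040-89311282: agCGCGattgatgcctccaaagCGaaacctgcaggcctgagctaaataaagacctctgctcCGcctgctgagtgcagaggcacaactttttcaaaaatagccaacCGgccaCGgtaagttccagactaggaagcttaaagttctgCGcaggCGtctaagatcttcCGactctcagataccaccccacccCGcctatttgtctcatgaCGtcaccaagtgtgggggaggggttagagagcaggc

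The stretch before the distal Cdkn2a start is dense in CpG. Its full 250 bases held 40 CpG, more than 98.7% of the 32851 promoters in the RefSeq table, where the median was 6. The proximal Cdkn2a start had 7 CpG in 250 bases and Cdkn2b had 12. For comparison, the 250 bases before the Trp53 start held 9, those before Egfr 11, those before Erbb2 16 and those before Met 24. The Ctnnb1 starts had 35 and 43, the latter above the distal Cdkn2a start, so such density was not particular to Cdkn2a. Of the 9 genes, 7 had a promoter in that table. None of the stretches before their exons held the letters TTCNNNGAA (a GAS element, bound by STAT factors), GAAA, any 2 bases and GAAA (an ISRE, bound by IRF factors) or CACGTG (the E-box of MYC), read on both strands. Over all promoters, these letters were found in 7.02%, 2.98% and 6.02% of the 250-base windows. Some of the stretches searched in the members were shorter, down to 72 bases for Ctnnb1.

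The levels of the 9 genes spanned more than 2 orders of magnitude, with Ctnnb1 at the top in every tumor. Levels were compared between genes per length, as CPM per kb of the union of exons. Ctnnb1 was highest, with a median of 99.0 CPM per kb over the 6 tumors (range 97.1 to 104). Trp53 followed at 43.0 (39.8 to 45.1) and Myc at 35.2 CPM per kb (32.1 to 45.5), and the ranges of these 2 overlapped. Met stood at 15.4 CPM per kb (14.01 to 17.7). Erbb2 at 7.08 (6.12 to 7.25) and Apc at 6.70 CPM per kb (5.77 to 7.97) did not differ beyond their spread. A gap of 11.6-fold in the median separated Apc from Egfr, at 0.575 CPM per kb (0.322 to 0.681). Cdkn2a, at 0.434 (0.385 to 0.854), and Cdkn2b, at 0.380 CPM per kb (0.267 to 0.699), overlapped Egfr and each other. Of the protein-coding genes tested, 97.1% had a lower mean level than Ctnnb1 and 89.6% a lower one than Myc, against 9.45% for Egfr and 9.39% for Cdkn2a.

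**Figure D1:**
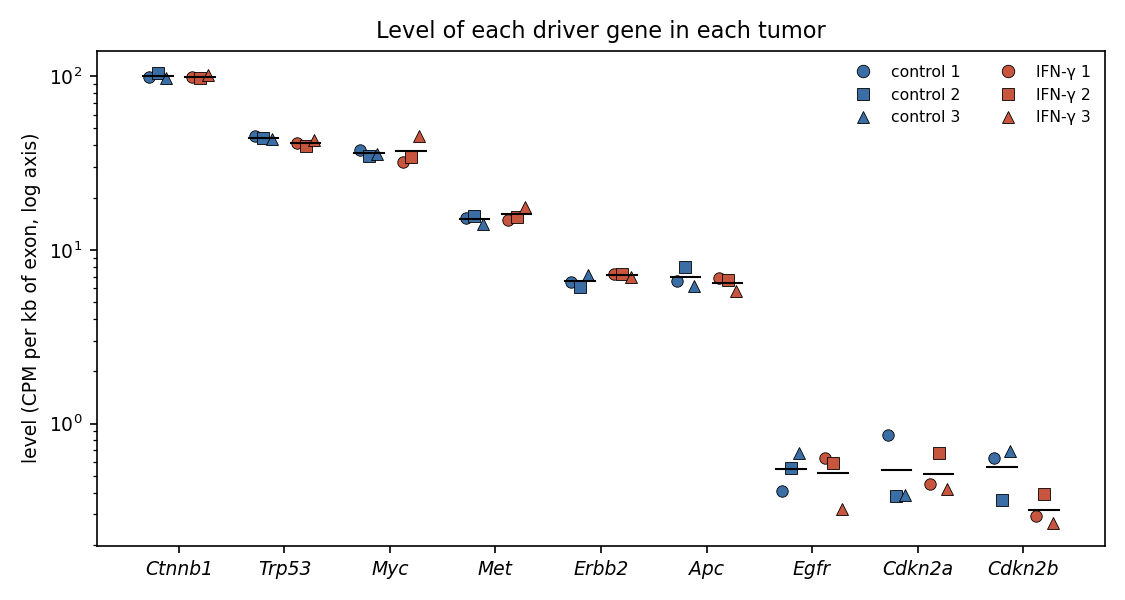
Level of the 9 driver genes in each tumor, in CPM per kb of exon on a log axis, with control tumors in blue, IFN-γ tumors in red, a symbol per tumor number and a bar at each group's mean. Ctnnb1 lies near 99.0, while Egfr, Cdkn2a and Cdkn2b lie under 1 in every tumor.

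The question put to each gene was whether its level differed between the IFN-γ and the control group. Of the 9 genes, 7 passed the filter on low counts and 0 of these 7 were called, against 0.112% of all genes tested. None of the 7 had an unadjusted p under 0.05, and DESeq2 and limma-voom also called 0. Without IFN-γ tumor 3 all 9 genes passed the filter and 0 were called, where 3.18% of all genes were. The median size of the log2 fold change was 0.099 for the 7 genes and 0.12 for all genes tested. The largest of the 7 was 0.12, for Erbb2. A p over the threshold does not show that a gene was the same in both groups, so the 95% interval of each change is given below.

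**Figure D2:**
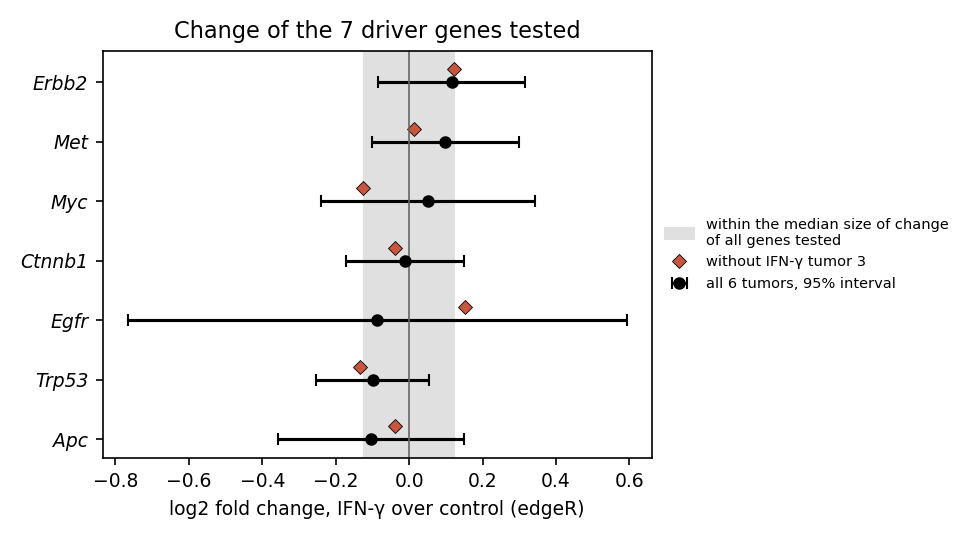
Log2 fold change of the 7 driver genes tested, IFN-γ over control, with black points and 95% intervals from edgeR on all 6 tumors and red diamonds for the fit without IFN-γ tumor 3. The grey band spans the median size of change of all genes tested, 0.12 on either side of 0, and each interval crosses 0.

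Apc, the scaffold of the β-catenin destruction complex, was at 107, 128 and 100.4 CPM in control tumors 1, 2 and 3 against 111, 109 and 93.1 CPM after IFN-γ. The highest value was control tumor 2 and the lowest IFN-γ tumor 3, with the other 4 between them. Its log2 fold change was -0.10 (standard error, SE, 0.11, 95% interval -0.36 to 0.15, edgeR adjusted p = 0.81), and -0.038 without IFN-γ tumor 3 (edgeR adjusted p = 0.91). Apc spans bases 34220924 to 34322552 of chromosome 18 (plus strand) in GRCm38.

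Ctnnb1, the gene of β-catenin, was the most even of the 9. It was at 516, 540 and 504 CPM in the control tumors and 513, 505 and 530 CPM in the IFN-γ tumors, so the highest was only 1.07 times the lowest. IFN-γ over control gave a log2 fold change of -0.011 (SE 0.070, edgeR adjusted p = 0.98), and the 95% interval from -0.17 to 0.15 leaves a change of more than about 11.2% down or 10.9% up outside it. Without IFN-γ tumor 3 the value was -0.039 (edgeR adjusted p = 0.86). An opposite-strand gene, Ulk4, overlaps 14.6% of the exon bases of Ctnnb1. It had 845 reads in the 6 tumors against 52318 for Ctnnb1. The level of Ctnnb1 over that of Apc, per kb, was 14.5 ± 1.32 (SD, n = 3) in the control group and 15.5 ± 1.90 (SD, n = 3) in the IFN-γ group (two-sided exact permutation test on the log2 ratio, p = 0.6, where 0.1 is the smallest that 3 against 3 allow).

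Around these 2 genes, the list of WNT receptors, destruction complex members and nuclear partners had all 22 genes tested and 0 called by edgeR, with a median log2 fold change of 0.053 against 0.0015 for all genes. Gsk3a, a kinase of the complex, had the highest level of the list per kb, with a log2 fold change of -0.057 (edgeR adjusted p = 0.85), or -0.12 without IFN-γ tumor 3 (edgeR adjusted p = 0.47). Lef1, a partner of β-catenin on DNA, had the largest difference, -0.43 (edgeR adjusted p = 0.67). Of the 18 WNT feedback and target genes, 8 were tested, and edgeR called 0 of these in the 6 tumors. DESeq2 called Cd44 of this list lower (adjusted p = 0.00085), as did edgeR with no filter (adjusted p = 0.042). The other 10 failed the filter, among them Axin2 with 1 to 10 counts per tumor, Nkd1 with 0 to 7, Lgr5 and Notum with at most 1 and Sp5 with 0. Axin2 and Nkd1 are feedback inhibitors that β-catenin induces, and Lgr5 marks intestinal stem cells. Ccnd1, which encodes cyclin D1 and is also driven by MAPK signaling, had the highest level of the list, at 1262 ± 39.6 CPM in the control group and 1158 ± 47.4 after IFN-γ (SD, n = 3 each). Apcdd1, an inhibitor of WNT signaling, had the largest difference, 0.81 (SE 0.39, edgeR adjusted p = 0.53). It was at 25.1 CPM in IFN-γ tumor 3 and at 13.0 and 10.02 in the other IFN-γ tumors, and the value was 0.32 without IFN-γ tumor 3 (edgeR adjusted p = 0.69).

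Myc was at 102, 94.3 and 96.9 CPM in the control tumors, while the IFN-γ tumors had 87.2, 93.0 and 124 CPM in the order 1, 2, 3. IFN-γ tumor 3 was the highest of the 6 and IFN-γ tumors 1 and 2 were the lowest, so the control values fell inside the range of the IFN-γ group. IFN-γ over control gave a log2 fold change of 0.051 (SE 0.13, 95% interval -0.24 to 0.34, edgeR adjusted p = 0.93) in all 6 tumors and -0.13 (SE 0.076, edgeR adjusted p = 0.48) without IFN-γ tumor 3. The direction of Myc thus rested on that 1 tumor, which was also the highest or lowest of the 6 in several marker sums. Its epidermal sum, led by Krt14, was 79.9 CPM against 8.34 to 15.82 in the other 5. Its colon epithelial sum, mostly Krt20, was the highest (284 CPM). Its T cell (45.1 CPM), endothelial (205 CPM) and fibroblast (3550 CPM) sums were the lowest, the last close to the 3573 CPM of control tumor 2. Single markers did not all follow the sums. Dcn of the fibroblast list was highest in IFN-γ tumor 3, at 6351 counts against 4355 to 5206. Trp63 of the epidermal list had 44 counts there, against 91 and 106 in IFN-γ tumors 1 and 2. The part of these cells in the Myc value was not tested. Myc is a gene of the plus strand of chromosome 15, from 61985391 to 61990374.

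Of 12 tested partners and antagonists of MYC, edgeR called 0 in the 6 tumors and DESeq2 called 1, Mxd4, higher (log2 fold change 0.39, adjusted p = 0.047). In edgeR the median log2 fold change was 0.022. Bin1, a MYC-binding adaptor, had the highest level of these, at -0.054 on the log2 scale (edgeR adjusted p = 0.85), or -0.10 without IFN-γ tumor 3 (edgeR adjusted p = 0.54). Mycn, the neural paralog, had 2 to 10 counts per tumor and failed the filter, and Mycl, another paralog, had the largest difference, 0.83 (SE 0.37, edgeR adjusted p = 0.49), at 1.67 ± 0.885 CPM in the control and 2.97 ± 0.381 CPM after IFN-γ (SD, n = 3 each). Of 25 tested MYC targets, mostly genes of ribosome synthesis, metabolism and DNA replication, edgeR called 0, and their median size of change was 0.043, under the 0.12 of all genes tested. Ldha, lactate dehydrogenase A, had the highest level and a change of 0.14 on the log2 scale (edgeR adjusted p = 0.77), which was near 0 without IFN-γ tumor 3 (edgeR adjusted p = 1.0). Odc1, ornithine decarboxylase of polyamine synthesis, had the largest difference of the list, -0.45 (SE 0.099, edgeR adjusted p = 0.22), from 427 ± 32.2 CPM in the control group to 314 ± 32.2 after IFN-γ (SD, n = 3 each). The groups of Odc1 did not overlap, and DESeq2 called it lower (adjusted p = 0.0054), as did edgeR with no filter (adjusted p = 0.031).

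Cdkn2a and Cdkn2b were close to silent. Cdkn2a had 16, 8 and 8 counts in control tumors 1, 2 and 3 and 9, 13 and 8 counts in the IFN-γ tumors, or 62 reads in all. Cdkn2b gave 14, 9 and 17 reads per control tumor and 7, 9 and 6 per IFN-γ tumor, also 62 in all. Each count was above the 3 that were taken as the floor, so each whole tumor held some RNA of both genes. Whether these reads came from the implanted line or from host cells was not tested. Both failed the filter of the test across genes and were compared by the mean CPM.

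Cdkn2a averaged 0.636 ± 0.315 CPM in the control group and 0.604 ± 0.165 CPM after IFN-γ (SD, n = 3 each, two-sided exact permutation test, p = 1.0). The highest value, 1.0 CPM, was control tumor 1, and the groups overlapped. Cdkn2b averaged 0.785 ± 0.245 CPM in the control group and 0.442 ± 0.0947 CPM after IFN-γ (SD, n = 3 each, two-sided exact permutation test, p = 0.2). Control tumor 2, at 0.507 CPM, lay under IFN-γ tumor 2, at 0.550 CPM, so the groups overlapped here too. The smallest p that this test allows is 0.1. Without IFN-γ tumor 3 both genes passed the filter, with log2 fold changes of 0.050 for Cdkn2a (edgeR adjusted p = 0.98) and -0.71 for Cdkn2b (edgeR adjusted p = 0.56). Pooled over 3 tumors, Cdkn2b had 0.781 CPM in the control group (exact 95% Poisson interval 0.558 to 1.06) and 0.442 CPM in the IFN-γ group (0.277 to 0.669), intervals that overlap and cover counting error only.

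The low counts of Cdkn2a and Cdkn2b were set against the genes beside them. These neighbors were chosen after their values were seen. In GRCm38, Cdkn2a lies on the minus strand of chromosome 4 from 89274471 to 89294653, and Cdkn2b from 89306299 to 89311039, with 11.6 kb between them. Mtap, the gene of methylthioadenosine phosphorylase in the methionine salvage pathway, ends 93.4 kb before Cdkn2a and had 4359, 4710 and 5102 counts in the control tumors and 4241, 4024 and 4537 in the IFN-γ tumors. Per kb, Mtap stood from 99.0 to 232 times above Cdkn2a and from 129 to 326 times above Cdkn2b within single tumors. Of the 38 annotated genes within 500 kb on either side, 6 had more than 3 counts in every tumor, and 22 had 0 counts in each. The 6 were Mtap, Cdkn2a, Cdkn2b and 3 genes annotated as non-coding, Gm49890, Gm12602 and Gm12606. Gm12606, just past the end of Cdkn2a, had 8 to 20 counts, in the same low range as the Cdkn2 genes. Dmrta1, the next protein-coding gene on the far side of Cdkn2b, had at most 5 counts. The copy number of the region was not measured in these data.

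**Figure D3:**
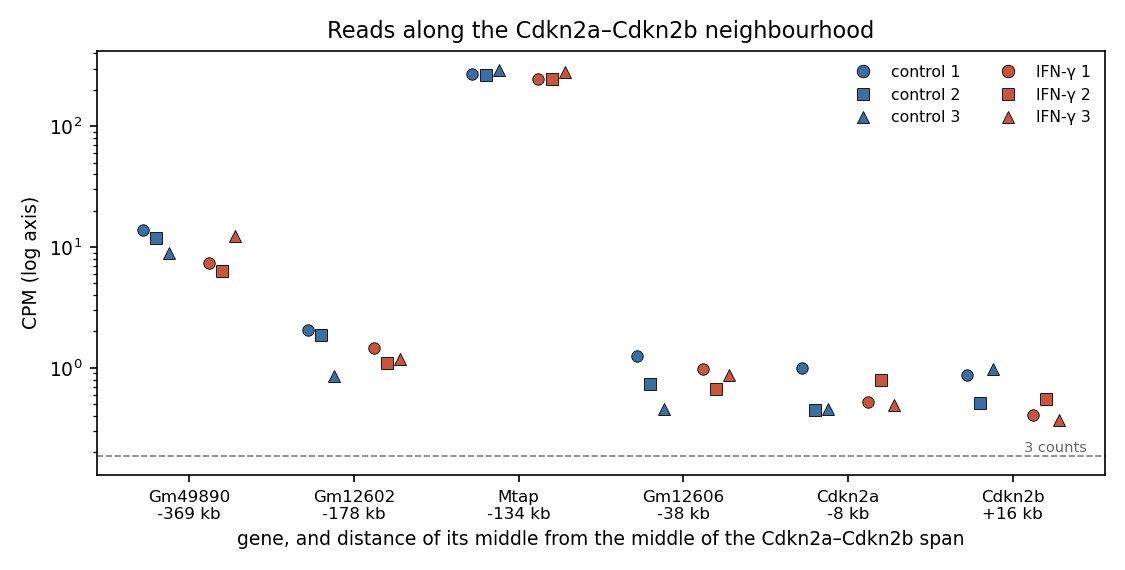
Reads of the 6 genes around Cdkn2a and Cdkn2b that exceeded 3 counts in every tumor, in CPM on a log axis, ordered along chromosome 4 with the distance of each from the middle of the Cdkn2a and Cdkn2b span. Mtap lies near 269 CPM in the 6 tumors, Cdkn2a and Cdkn2b lie between 0.371 and 1.0 CPM, and the dashed line marks 3 counts in the shallowest library.

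The other INK4 inhibitors were expressed. Cdkn2c, which encodes p18INK4c, had 1320 to 1505 counts per tumor and a median level of 30.5 CPM per kb, and Cdkn2d, which encodes p19INK4d, had 1051 to 1240 counts and 43.9 CPM per kb. Of the reads on the 4 INK4 genes, 53.8% fell on Cdkn2c, 45.4% on Cdkn2d and 0.402% on each of Cdkn2a and Cdkn2b. In the list of 18 genes from the INK4 inhibitors through the D cyclins to RB and the E2F factors, all were tested and edgeR called 0, with a median log2 fold change of -0.034. Ccnd1 again had the highest level of the list. E2f2, an activator of S phase genes, had the largest difference, -0.59 (SE 0.13, edgeR adjusted p = 0.22). It was at 29.9 ± 2.85 CPM in the control group and 19.8 ± 2.67 after IFN-γ (SD, n = 3 each), with no overlap. DESeq2 called E2f2 lower (adjusted p = 0.013), and so did edgeR with no filter (adjusted p = 0.031).

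Trp53 was the only one of the 9 genes whose groups did not overlap in CPM, as was so for 15.1% of all genes tested. It was at 182, 178 and 176 CPM in the control tumors and 167, 161 and 172 CPM in the IFN-γ tumors. Each IFN-γ tumor was lower than each control, by a small margin. IFN-γ over control gave a log2 fold change of -0.099 (SE 0.067, edgeR adjusted p = 0.68), with a 95% interval from -0.25 to 0.055, or from -16.1% to 3.89% on the linear scale. It was -0.13 without IFN-γ tumor 3 (edgeR adjusted p = 0.42). The exact permutation test of the mean gave p = 0.1, the smallest it can give. A processed copy, Trp53-ps, and other genes shared 3.95% of the 50-base words in Trp53 transcripts. Trp53 spans bases 69580359 to 69591873 of chromosome 11 (plus strand), and Ctnnb1 bases 120929216 to 120960507 of chromosome 9 (plus strand).

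Of the 21 p53 regulators and targets tested, edgeR called 0 in all 6 tumors, and the median log2 fold change was 0.0015, equal to that of all genes to 2 digits. Cdkn1a, the p53 target that encodes the kinase inhibitor p21, was at 206, 162 and 183 CPM in the control tumors and at 106, 108 and 136 CPM in the IFN-γ tumors. Its groups did not overlap, and edgeR gave a log2 fold change of -0.65 (SE 0.12, edgeR adjusted p = 0.15). DESeq2 called Cdkn1a lower on the same 6 tumors (adjusted p = 0.00040), as did edgeR with no filter on low counts (adjusted p = 0.0031) and edgeR without IFN-γ tumor 3 (adjusted p = 0.012). Phlda3, a p53 target that inhibits AKT, had the highest level of the list and a change of 0.28 on the log2 scale (edgeR adjusted p = 0.57), or 0.15 without IFN-γ tumor 3 (edgeR adjusted p = 0.67). Perp, a desmosomal p53 target, had the largest difference, 1.77 (SE 1.14, edgeR adjusted p = 0.66), and it changed sign without IFN-γ tumor 3, to -1.07 (edgeR adjusted p = 0.56). IFN-γ tumor 3 is the one with the high epidermal sum, and the share of epidermal cells in the value of Perp was not tested.

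Among the receptors, Met was the most abundant and Egfr the least. Met was at 116, 121 and 108 CPM in the control tumors and 114, 119 and 136 CPM in the IFN-γ tumors. Its highest value came from IFN-γ tumor 3, and the other 5 lay between 108 and 121 CPM. The log2 fold change was 0.099 (SE 0.088, 95% interval -0.10 to 0.30, edgeR adjusted p = 0.77), and 0.013 without IFN-γ tumor 3 (edgeR adjusted p = 0.96). Met spans bases 17463800 to 17573980 of chromosome 6 (plus strand).

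Erbb2 was at 34.1, 31.9 and 37.3 CPM in the control tumors and 37.8, 37.6 and 36.5 CPM in the IFN-γ tumors. The IFN-γ values were close together, and control tumor 3 lay among them. The log2 fold change was 0.12 (SE 0.087, 95% interval -0.084 to 0.32, edgeR adjusted p = 0.72), and 0.12 without IFN-γ tumor 3 as well (edgeR adjusted p = 0.61). Erbb2 spans bases 98412470 to 98437716 of chromosome 11 (plus strand), and shares 9 exon bases with Mien1 on the other strand. Per kb, Met exceeded Erbb2 by 2.28 ± 0.305 times in the control group and 2.24 ± 0.253 times after IFN-γ (SD, n = 3 each, exact permutation test, p = 0.9).

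Egfr had only 74, 112 and 135 reads per control tumor and 124, 110 and 59 per IFN-γ tumor. In CPM these were 4.63, 6.31 and 7.71, and 7.20, 6.72 and 3.65. IFN-γ tumor 3 was lowest, control tumor 1 next, and the spread over the 6 tumors, 2.11-fold, was larger than that of any other gene tested of the 9. The log2 fold change was -0.087 with a wide 95% interval, from -0.77 to 0.59 (SE 0.30, edgeR adjusted p = 0.95), and it was 0.15 without IFN-γ tumor 3 (edgeR adjusted p = 0.82). The 2 tumors with the least Egfr had fibroblast marker sums of 4281 CPM (control tumor 1) and 3550 CPM (IFN-γ tumor 3), and the other 4 had 3573 to 5541 CPM. The part of fibroblasts in the Egfr values was not tested. Met stood from 20.6 to 54.9 times above Egfr per kb within single tumors, and Erbb2 from 10.5 to 21.7 times above it. Egfr spans bases 16752203 to 16918158 of chromosome 11 (plus strand).

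Of the 18 genes for other ERBB receptors, their ligands and adaptors, 15 were tested and edgeR called 0 in all 6 tumors. Erbb4 had 0 counts in every tumor. The log2 fold change was below 0 for 12 of the 15, with a median of -0.14 against 0.0015 for all genes. Errfi1, an ERBB inhibitor that growth factor signals induce, had the highest level of the list, at 341 ± 19.5 CPM in the control group and 248 ± 78.8 after IFN-γ (SD, n = 3 each, log2 fold change -0.46, edgeR adjusted p = 0.46). Without IFN-γ tumor 3 it was lower, at -0.76 (edgeR adjusted p = 0.0096). Ereg, the ligand epiregulin, had the largest difference, -0.67 (SE 0.24, edgeR adjusted p = 0.39). Of the 13 tested genes of the HGF and MET pathway, edgeR called 0 and the median log2 fold change was 0.014. Plxnb2, a semaphorin receptor, led that list in level (log2 fold change 0.060, or 0.092 without IFN-γ tumor 3), and St14, the protease matriptase that activates HGF, had the largest difference, 0.63 (edgeR adjusted p = 0.70). Of the 17 MAPK feedback and output genes, all tested, edgeR called 0, and the median was -0.098. Emp1, a membrane protein, was at 2044 ± 139 CPM in the control group and 1895 ± 227 after IFN-γ (SD, n = 3 each), -0.11 on the log2 scale and -0.22 without IFN-γ tumor 3 (edgeR adjusted p = 0.23). Dusp5, a phosphatase that inactivates ERK, had the largest difference, -0.44 (edgeR adjusted p = 0.53), and without IFN-γ tumor 3 it was called lower, at -0.77 (edgeR adjusted p = 0.015).

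A list of 21 further driver and mismatch repair genes of colon cancer had all members tested and 0 called by edgeR. Its median log2 fold change was 0.0063. Msh6, a mismatch repair gene, had the highest level, at 0.21 on the log2 scale (edgeR adjusted p = 0.46), or 0.13 without IFN-γ tumor 3 (edgeR adjusted p = 0.50). Sox9, a transcription factor of the intestinal crypt, had the largest difference, -0.53 (SE 0.18, edgeR adjusted p = 0.38).

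Over all these lists, 165 distinct genes were tested in the 6 tumors and 0 were called by edgeR. An unadjusted p under 0.05 was found for 26 of them, or 15.8%, against 10.2% of all genes tested. DESeq2 called 5 on the same tumors, with Cdkn1a, E2f2, Odc1 and Cd44 lower and Mxd4 higher, and edgeR with no filter on low counts called the first 4 of these. Over the whole table DESeq2 called 0.532% of genes lower and 0.936% higher, and edgeR with no filter called 0.261% lower and 0.558% higher. Limma-voom called 0.

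Without IFN-γ tumor 3, 10 of the 165 genes were lower in the IFN-γ group, or 6.06%, where 0.723% of all genes tested were. Another 3 were higher, or 1.82%, against 2.46% of all genes. This fit was singled out because it called the most genes, and the lists were chosen with earlier results known. These shares are therefore a description and cannot show an excess. The lower genes were Ereg, Hbegf and Errfi1 of the ERBB list, Dusp5, Phlda1, Spry4 and Fosl1 of the MAPK list, and Cdkn1a, Odc1 and Cd44. That is 3 of the 15 ERBB genes tested and 4 of the 17 MAPK genes. MAPK genes not called in this fit included Dusp6 at -0.017, Egr1 at 0.13 and Etv4 at -0.24 on the log2 scale. Hbegf encodes an EGFR ligand, Spry4 a feedback inhibitor of receptor tyrosine kinase signaling, Fosl1 an AP-1 subunit that ERK signaling induces, and Cd44 a hyaluronan receptor. Ereg was at 176, 158 and 131 CPM in the control tumors against 78.4 and 73.5 CPM for the first 2 IFN-γ tumors, or -1.04 on the log2 scale in these 5 (edgeR adjusted p = 0.0096). IFN-γ tumor 3 was at 141 CPM, inside the control range. Hbegf was at 133, 141 and 121 CPM in the control tumors, at 82.4 CPM in IFN-γ tumor 1, 75.4 CPM in IFN-γ tumor 2 and 161 CPM in IFN-γ tumor 3, which was the highest of the 6. Over the 10 genes, IFN-γ tumor 3 was within the control range for 4, above it for 3 and below it for 3. Those 3 were Cdkn1a, Odc1 and Cd44, so each IFN-γ tumor was below each control for them.

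The 3 higher genes were Mxd4, an antagonist of MYC, Trp53inp1, a p53 target, and Trp63, a p53 family member of basal epithelium. Mxd4 was at 61.9, 57.6 and 58.9 CPM in the control tumors and at 82.1, 83.0 and 68.6 in the IFN-γ tumors, with no overlap. Trp53inp1 was at 22.2 CPM (IFN-γ tumor 1), 23.1 CPM (IFN-γ tumor 2) and 9.89 CPM (IFN-γ tumor 3), with the controls between 11.9 and 13.6. The 13 genes of these 2 groups were named for a fit that left out 1 library, after their values were seen. Summed T cell markers were 110, 134 and 45.1 CPM in IFN-γ tumors 1, 2 and 3, against 60.0 to 85.1 in the controls. Macrophage sums, with Lyz2 as the largest part, were 5484, 6647 and 4021 CPM in the IFN-γ tumors in that order. Summed colon epithelial markers, mostly Krt20, were 129, 123 and 284 CPM in IFN-γ tumors 1, 2 and 3, against 166 to 188 CPM in the controls. This sum reads close to Krt20 alone. In IFN-γ tumors 1, 2 and 3, Krt18 had 113, 105 and 161 counts, while Krt8 had 22, 21 and 3. The part of any cell type in the differences was not tested.

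**Figure D4:**
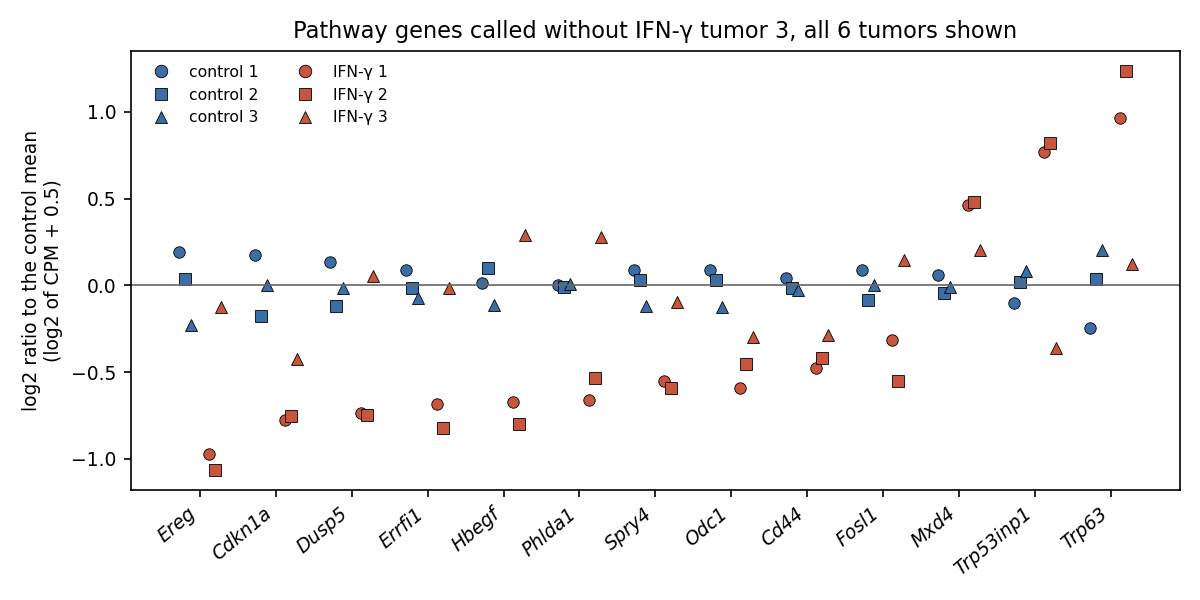
Log2 ratio of each tumor to the control mean, on the log2(CPM + 0.5) scale, for the 13 pathway genes called in the fit without IFN-γ tumor 3, with control tumors in blue and IFN-γ tumors in red. IFN-γ tumors 1 and 2 lie on the same side of the controls for each gene, while IFN-γ tumor 3 lies above the controls for Hbegf, Phlda1 and Fosl1 and below them for Cd44, Odc1 and Cdkn1a. Among the 3 higher genes it lies above the controls for Mxd4, below them for Trp53inp1 and within their range for Trp63.

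For each of the 7 tested members, the gene with the most similar course over the 6 tumors was sought among the genes of at least 10 CPM, by Pearson's r of log2(CPM + 0.5). Myc went with Utp18, a factor of ribosomal RNA processing, at r = 0.995, and Trp53 with Ipo4, a nuclear import receptor, at r = 0.998. Apc was most like Mcm3ap (r = 0.9998), Ctnnb1 like Pcdhb22 (r = 0.990), Egfr like Chd4 (r = 0.987), Erbb2 like Il10rb (r = 0.994) and Met like Tmem106c (r = 0.993). With only 6 tumors, each r is the highest of about 10090 searched and is given as a description. For Myc, 76 genes had r over 0.95, and for Ctnnb1 10 genes did.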

How the data were processed

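The deposited table holds raw read counts, as whole numbers, for each gene in the 6 tumors. The submitters' processing notes name HISAT2 and mm10. The counting program, annotation and strandedness are not given in the sources used here, so genes that overlap on opposite strands could share reads. No label says that samples are technical repeats, and p-values measure the spread between the 3 tumors of a group.

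CPM used TMM factors. Tests across genes used edgeR 4.0.16 (R 4.3.3), with filterByExpr at its default minimum count of 10, quasi-likelihood F tests and adjustment by Benjamini-Hochberg over all genes tested. A standard error is the log2 fold change over the square root of F. Members under the filter had exact permutation tests (SciPy 1.17.1). Lengths, coordinates and transcripts came from GENCODE M21 (GRCm38), which holds 99.4% of the identifiers. DESeq2 1.42.0, limma 3.58.1 (voom), other scalings, filters, a replicate block and leaving out each tumor were the alternatives. Scripts were tested on simulated data. Deviations from the group means correlated by -0.241, -0.0047 and -0.221 between like-numbered tumors, and numbers were not taken as pairs.

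The members and lists were chosen with earlier results of these data known. The genes named were the 9 members and, in each pathway list, those past the threshold, the one with the highest level and the one with the largest change, then the leading gene of each marker list and the gene most like each member. Others are named after their values were seen.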

Additional observations from a re-analysis of the deposited data

How the results depend on the processing

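The 7 tested driver genes stayed uncalled in 91 comparisons under the alternatives, with a smallest adjusted p of 0.42 (edgeR, without IFN-γ tumor 3, for Trp53). In 85 of them the direction was kept, and 6 reversed, each when 1 tumor was left out. Over those fits the log2 fold change ran from -0.13 to 0.15 for Myc, with the negative end without IFN-γ tumor 3, and from -0.18 to 0.0062 for Apc. It ran from -0.040 to 0.017 for Ctnnb1 and from -0.26 to 0.15 for Egfr, and the cause was not tested. The difference in mean CPM of Cdkn2a ran from -0.13 to 0.15, above 0 without control tumor 1 (0.15), IFN-γ tumor 1 (0.0083) or IFN-γ tumor 3 (0.022), and Cdkn2b stayed below 0.

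Genes called over the whole table numbered 12 higher and 5 lower. Leaving out 1 tumor gave 4 to 381 higher and 2 to 112 lower, and 0 to 3 higher and 0 to 10 lower among the pathway genes, the largest each time without IFN-γ tumor 3. DESeq2 gave 125 and 71, with 1 and 4 among the pathway genes. Dropping the low-count filter gave 150 and 70, with 4 pathway genes lower. Library size only gave 7 higher, and limma-voom gave 3 lower. With the replicate block, 5 genes were higher and 2 lower, and no member was called.

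With the longest transcript as length, the median level was 40.9 CPM per kb for Myc, 53.1 for Trp53, 142 for Ctnnb1, 8.42 for Apc and 17.3 for Met, and Apc then stood above Erbb2, at 7.36. At this depth Cdkn2a and Cdkn2b rest on 62 reads each.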
